A study of Mus musculus with 9 samples.

Results

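The transcriptomes of 9 mouse Treg cultures fell into those with high and those with low transcript levels of genes that respond to low oxygen. Regulatory T cells, or Tregs, restrain other immune cells and are defined by the transcription factor Foxp3. The high and low cultures were chosen by their measured levels of hypoxia and glycolysis transcripts and not from the labels, so the difference between the high and the low cultures is described here without a p-value. All 9 cultures of the series were used. The 5 high cultures were Ezh2-deficient replicates 1 and 4 and WT replicates 1, 2 and 4, and the 4 low cultures were Ezh2-deficient replicates 2 and 3 and WT replicates 3 and 5. Ezh2-deficient mice carried Foxp3-Cre-GFP, R26-LSL-RFP and Ezh2-fl/fl, so that Cre was driven from Foxp3 and the enzyme was lost in Foxp3-expressing cells. WT mice carried the same Foxp3-Cre-GFP and R26-LSL-RFP with Ezh2-+/+, except WT replicate 1, which was Ezh2-fl/+. All mice were of the C57BL/6 strain, and no age or sex was given. Tregs with high CD62L were sorted, activated on beads through CD3 and CD28, and cultured with 2000 U/ml interleukin-2 for 4 days with no other treatment. The labels name no oxygen level, cell density or harvest batch.

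Cells sense oxygen through prolyl hydroxylases (the Egln enzymes), which mark the alpha subunits of hypoxia-inducible factor (HIF) for destruction through Vhl when oxygen is present. When oxygen is short, the alpha subunit is spared, pairs with Arnt and binds the core sequence RCGTG near its targets, which include glucose transporters, glycolytic enzymes, Pdk1, Vegfa, Bnip3 and the hydroxylases Egln1 and Egln3 themselves. HIF activity is mostly set at the protein level, and in T cells it is also raised by activation and interleukin-2, so transcript levels of its targets are commonly read as its output.

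Total counts were 32469450 to 62201921 per library, with means of 45476700 in the high and 41230600 in the low cultures, a difference of 4246050 that was within the spread between libraries (exact two-sided permutation test over 126 arrangements, p = 0.619). Of 22839 genes with a count, 14470 were tested. Values below are levels in CPM, depth-scaled counts with library sizes corrected by trimmed means of M-values, given for the high cultures in the order Ezh2-deficient 1 and 4 and WT 1, 2 and 4, and for the low cultures in the order Ezh2-deficient 2 and 3 and WT 3 and 5. Fold changes are high over low, fitted with edgeR with the genotype as a covariate. A gene was called higher when every high culture lay above every low culture within both genotypes and the fitted change was at least 1.5-fold, and called lower in the reverse case. The Treg label held in all 9 cultures: Foxp3 was at 1642, 1660, 1530, 1495 and 1540 CPM in the high and 1967, 1950, 1488 and 1296 CPM in the low cultures, and Cd4 at 391 to 488 CPM. Ezh2 transcripts, whose count includes the part of the gene outside the floxed exons, were at 152 to 167 CPM in the 4 Ezh2-deficient cultures and 233 to 361 CPM in the 5 WT cultures. By the transcripts Xist and Ddx3y, 3 high and 1 low cultures came from female mice and 2 high and 3 low cultures from male mice.

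By the rule for calls, 310 genes (2.14% of those tested) were higher and 133 (0.919%) were lower in the high cultures. The first number rests on low-level genes as well as on abundant ones. Of the 5 equal classes of 2894 genes ordered by mean level, the lowest, at up to 1.17 CPM, held 121 of the genes called higher and 66 of those called lower, and the highest, at 93.4 CPM or more, held 35 and 1. A fitted change of at least 2-fold was seen in 222 of the genes called higher and 53 of those called lower, and 4-fold in 61 and 8. The median change of all tested genes was -0.02 on the log2 scale. The rule is easier to meet with fewer libraries: without Ezh2-deficient replicate 1, WT replicate 3 or WT replicate 5 the genes called higher were 467, 496 and 598, and without WT replicate 3 or 5 those called lower were 369 and 406.

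The same genes were compared within each genotype, where the cultures share no library. The difference of mean log2 CPM was at least 1.5-fold upward in 1314 genes among the Ezh2-deficient cultures and in 963 among the WT cultures, and 467 genes passed in both. Downward, 1212 and 652 genes passed, and 236 did so in both. Opposite moves of that size were seen in 104 genes that were higher in the Ezh2-deficient and lower in the WT high cultures and in 119 genes with the reverse pattern. Across the 14470 genes, which are not independent replicates, the differences in the 2 genotypes had a Pearson r of 0.36 and a Spearman rho of 0.33.

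**Figure D1:**
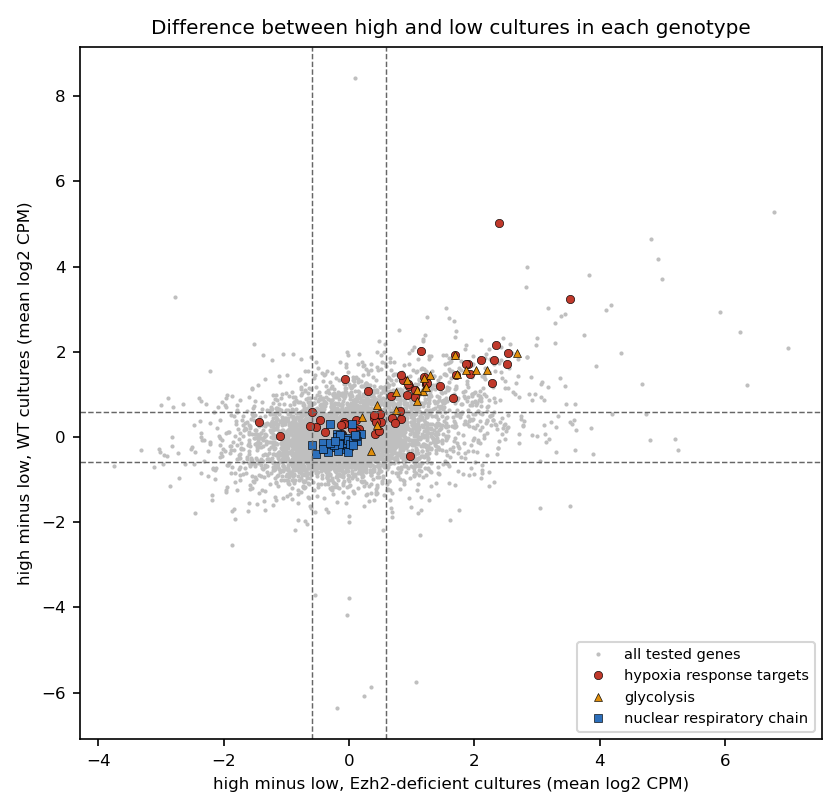
Each point is a tested gene, placed by the difference of mean log2 CPM between high and low cultures among Ezh2-deficient cultures (x axis, 2 against 2) and among WT cultures (y axis, 3 against 2), with dashed lines at 1.5-fold. Glycolysis genes (median 1.08 and 1.09) and hypoxia response targets (median 0.82 and 0.92) lie in the upper right, while nuclear respiratory chain genes (median -0.11 and -0.12) lie close to 0.

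Among the HIF pathway components, the hydroxylases Egln3 and Egln1 followed the split plainly. Both also count among the hypoxia response targets described below. The split was made with such genes, so their calls describe the split and support nothing. Egln3 (chromosome 12, 54178981 to 54203860), a HIF prolyl hydroxylase that is itself a HIF target, was at 167, 210, 148, 121 and 159 CPM in the high and 30.9, 33.4, 24.9 and 52.9 CPM in the low cultures, a 4.52-fold difference. Egln1, the main prolyl hydroxylase, was at 225, 237, 221, 227 and 263 CPM against 101, 95.4, 98.8 and 100 CPM, or 2.37-fold. For both enzymes the lowest high culture stood above the highest low culture whatever the genotype. Hif3a, an alpha subunit that can oppose the others, was the remaining call among 16 HIF pathway components, at 2.91 to 6.05 against 0.842 to 2.72 CPM. Of all tested genes 2.14% were called higher.

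The factors upstream showed much smaller differences. Hif1a, the alpha subunit that drives most glycolytic targets, was at 462, 536, 389, 475 and 448 CPM in the high and 413, 444, 360 and 487 CPM in the low cultures, and the groups overlapped among the WT cultures (1.09-fold). Its partner Arnt differed by 1.03-fold, and Vhl, the substrate receptor of the ligase that removes HIF, by 1.18-fold. Epas1, the second alpha subunit (HIF-2 alpha), was at 16.8 and 20.1 against 15.9 and 15.01 CPM in the Ezh2-deficient and 5.62, 5.77 and 6.40 against 3.53 and 3.45 CPM in the WT cultures. Epas1 thus kept the order of the split in both genotypes at 1.43-fold, under the fold asked for, while its levels separated mainly by genotype. Egln2, the hydroxylase that is not a usual HIF target, was 1.14-fold lower. Over the 16 components the median change was 0.13 on the log2 scale.

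Of 62 hypoxia response targets, 58 were tested, and 29 were called higher and 0 lower, against 2.14% of all tested genes called higher. The split was made with such genes, so this count describes the split and supports nothing. The median over the 58 was 0.68 on the log2 scale, 52 changes were positive, and without both libraries numbered 4 the count was 28. The culture just inside the high group by the summed level of the list, WT replicate 2, stood at 5356 CPM, and the culture just outside it, Ezh2-deficient replicate 2, at 4001 CPM.

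Ak4 (chromosome 4, 101419277 to 101466995), a mitochondrial adenylate kinase, was at 39.4, 49.7, 46.9, 41.0 and 60.6 CPM in the high and 3.26, 4.42, 6.17 and 4.29 CPM in the low cultures (10.4-fold). Bnip3 (chromosome 7, 138890836 to 138909519), a receptor for the removal of mitochondria by autophagy, was at 98.3, 138, 84.1, 93.4 and 111 CPM against 22.4, 23.4, 19.1 and 23.4 CPM (4.79-fold). Bnip3l, which has the same role, was at 150 to 198 against 77.9 to 89.0 CPM (2.12-fold). In these 3 genes all 5 high cultures stood apart from all 4 low ones. The low cultures lay within a narrow band for Bnip3 and Bnip3l, while Ak4 ranged from 3.26 to 6.17 CPM in them. Fam162a, a pro-apoptotic mitochondrial protein, was 3.01-fold and Higd1a, a respiratory supercomplex factor, 1.61-fold higher.

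Enzymes that modify collagen and other secreted proteins formed another group. P4ha2, a collagen prolyl hydroxylase, was at 54.0, 54.7, 12.6, 18.7 and 24.6 CPM in the high and 7.08, 15.1, 0.517 and 0.506 CPM in the low cultures. P4ha2 differed by 10.9-fold in the fit, but the low culture Ezh2-deficient replicate 3 stood above the high culture WT replicate 1, so that the order was clean only within each genotype. P4ha1 (1.94-fold), the lysyl hydroxylase Plod2 (3.13-fold), and Ero1l, which forms disulfide bonds in the endoplasmic reticulum (3.48-fold; 159 to 207 against 47.5 to 54.2 CPM), were also called. Loxl2, a lysyl oxidase, was called at a level of at most 1.12 CPM and with no count in the low WT cultures, so no fold is given for it.

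Signals and regulators among the targets behaved unevenly. Vegfa, the vascular growth factor, was at 37.2, 46.5, 37.9, 36.6 and 50.7 CPM against 8.79, 8.30, 20.3 and 14.4 CPM (3.29-fold). Ndrg1, a stress-response protein, was 2.34-fold and Mxi1, an antagonist of Myc, 1.96-fold higher, and the metal-binding metallothioneins Mt1 and Mt2 were 3.26-fold and 3.38-fold higher. Other textbook targets kept no order: Car9, a carbonic anhydrase, was at 0.401 to 1.21 CPM in the high and 0.421 to 0.775 CPM in the low cultures. Adm (adrenomedullin) differed by 1.01-fold, Hmox1 (heme oxygenase) by 1.13-fold and Bhlhe40, an abundant transcription factor in T cells, by 1.01-fold. Ddit4, an inhibitor of mTORC1, was 1.16-fold lower and its groups overlapped.

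**Figure D2:**
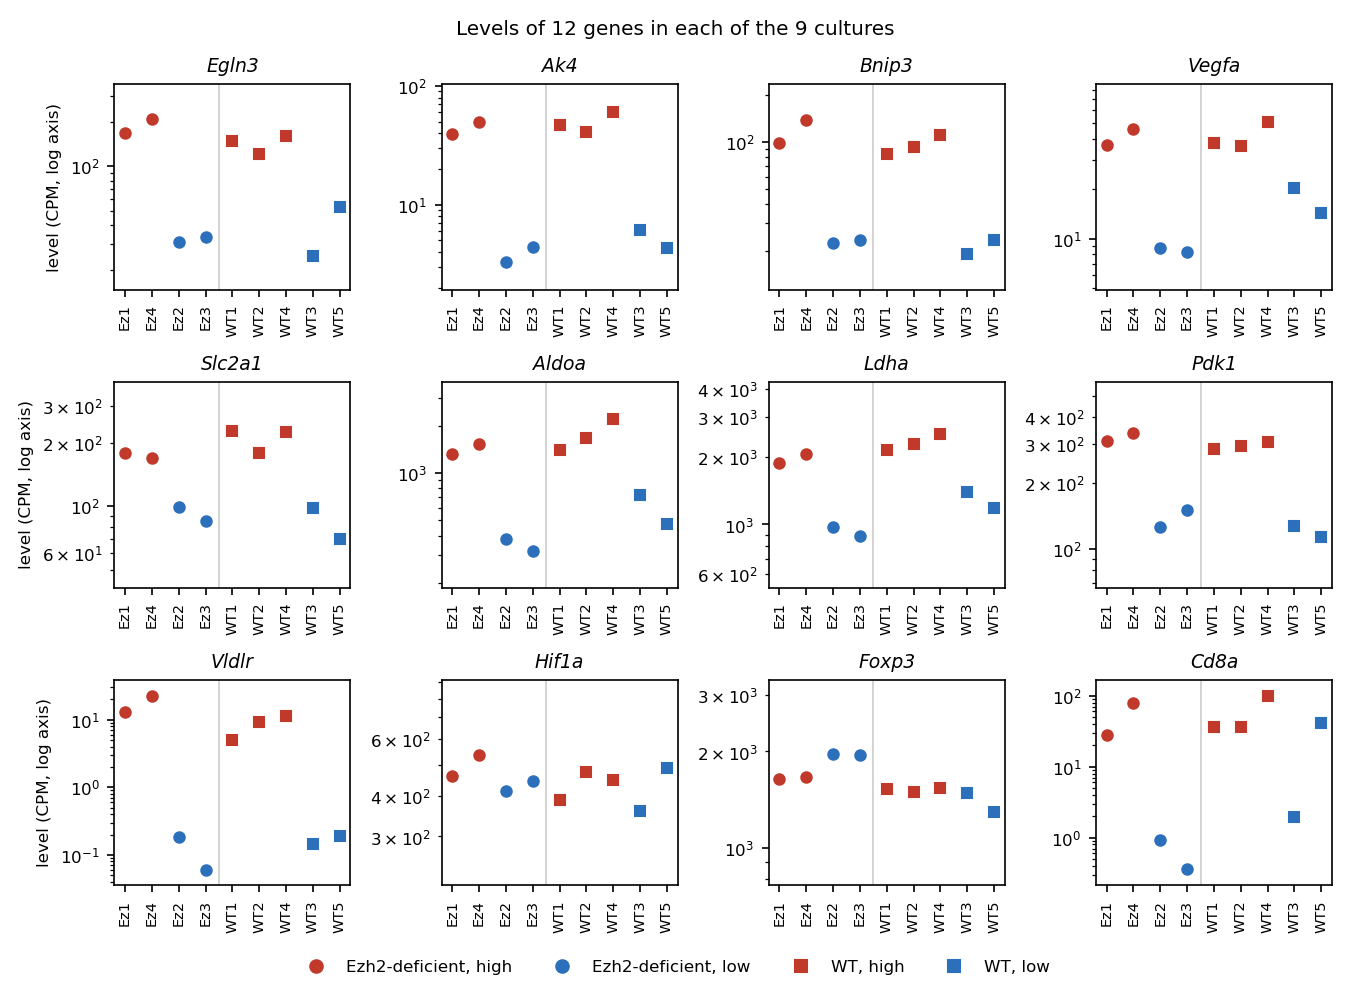
Levels in CPM (log axes) of 12 genes in each culture, with circles for Ezh2-deficient (Ez1 to Ez4) and squares for WT cultures (WT1 to WT5), red for high and blue for low. Egln3, Ak4, Bnip3, Vegfa, Slc2a1, Aldoa, Ldha, Pdk1 and Vldlr are higher in red than in blue in both genotypes. Hif1a overlaps among WT cultures, and Cd8a is at 41.2 CPM in the low culture WT5. Foxp3 is lower in red among Ezh2-deficient and higher in red among WT cultures, by a small margin for WT3.

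The windows of 250 bases before the start site of 4 of these genes are shown, and all 4 hold the HIF core. Other called list members, among them Aldoa, Hk1, Mxi1, Pkm, Tpi1 and Vegfa, had no core in their window and are not shown. Capitals mark ACGTG or GCGTG on either strand (CACGT and CACGC when read on the strand shown), CACGTG being a hit on both strands, and the sequences are from RefSeq on GRCm38.p6, 5′ to 3′ on the gene's strand.
Ak4, chr4:101419039-101419288, plus strand: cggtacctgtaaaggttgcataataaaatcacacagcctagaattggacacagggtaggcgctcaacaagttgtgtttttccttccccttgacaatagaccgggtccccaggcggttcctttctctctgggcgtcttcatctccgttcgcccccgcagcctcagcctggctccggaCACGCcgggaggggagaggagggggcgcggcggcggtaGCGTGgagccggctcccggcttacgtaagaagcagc
Bnip3, chr7:138909507-138909756, minus strand: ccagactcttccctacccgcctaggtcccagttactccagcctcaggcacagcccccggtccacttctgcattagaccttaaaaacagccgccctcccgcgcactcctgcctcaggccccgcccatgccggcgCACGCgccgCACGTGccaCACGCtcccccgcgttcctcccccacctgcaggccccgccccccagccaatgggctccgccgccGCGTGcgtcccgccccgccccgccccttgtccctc
Egln3, chr12:54203875-54204124, minus strand: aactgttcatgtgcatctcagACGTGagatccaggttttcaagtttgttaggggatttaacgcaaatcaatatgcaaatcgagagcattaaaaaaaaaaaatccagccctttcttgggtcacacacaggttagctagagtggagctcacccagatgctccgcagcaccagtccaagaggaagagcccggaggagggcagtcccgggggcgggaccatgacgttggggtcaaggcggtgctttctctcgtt
P4ha2, chr11:54100674-54100923, plus strand: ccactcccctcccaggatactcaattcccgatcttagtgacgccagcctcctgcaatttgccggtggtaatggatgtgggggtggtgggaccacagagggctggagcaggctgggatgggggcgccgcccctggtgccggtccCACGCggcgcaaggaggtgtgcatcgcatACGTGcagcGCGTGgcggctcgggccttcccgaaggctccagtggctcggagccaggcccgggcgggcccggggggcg
The Ak4 window had 2 hits, Bnip3 5, counting the CACGTG on each strand, Egln3 1 and P4ha2 3. One window per gene was available for 10387 tested genes, of which 56.6% held either core, against 54.0% of 202 genes called higher and 59.8% of 87 called lower. Within the hypoxia and glycolysis lists together the share was 75.7% of 37 members called higher and 75.9% of 29 not called. ACGTG alone was found in 21.8% of all these windows, 32.2% of those of genes called higher, 48.6% of those of called list members and 37.9% of those of list members not called. Either core stood in more list members than in tested genes at large, and did so equally in members that were and were not called. A match describes the letters only, and more distant elements lie outside these windows.

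Glycolysis genes gave the most even block. Of 23 genes on the list 22 were tested, and 16 were called higher and 0 lower, against 2.14% of all tested genes called higher. The split was made with such genes, so this count describes the split and supports nothing. The median change was 1.11 on the log2 scale, and the call count without both libraries numbered 4 was also 16. Their summed level was 10150, 11357, 11025, 12318 and 14590 CPM in the high and 4815, 4278, 6653 and 5114 CPM in the low cultures. The gap between the lowest high culture, Ezh2-deficient replicate 1, and the highest low culture, WT replicate 3, was wider than the spread among the low cultures.

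Transcripts of Slc2a1 and Slc2a3, which encode the glucose transporters GLUT1 and GLUT3, were both called higher. Slc2a1 was at 180, 170, 228, 179 and 225 CPM against 98.8, 85.5, 98.8 and 70.0 CPM (2.20-fold), and Slc2a3 at 291, 360, 151, 163 and 201 CPM against 125, 158, 58.3 and 71.7 CPM (2.48-fold). Both kept the order of the split within each genotype, and Slc2a3 was also higher in Ezh2-deficient than in WT cultures of the same level. Hk2, the inducible hexokinase, was 2.30-fold and Hk1, the constitutive one, 1.52-fold higher. Pfkp and Pfkl, isoforms of the committed enzyme phosphofructokinase, were 3.02-fold and 2.53-fold higher, and the muscle isoform Pfkm 1.26-fold. Pfkfb3, which makes the activator of phosphofructokinase, was 2.36-fold higher.

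Several enzymes further down the pathway were called as well. Aldoa (chromosome 7, 126795234 to 126800751), the main aldolase, was at 1319, 1527, 1407, 1677 and 2213 CPM against 383, 319, 726 and 473 CPM (3.40-fold). Tpi1, triose phosphate isomerase, was 3.22-fold, Pgk1, phosphoglycerate kinase, 3.65-fold and Eno1, enolase, 1.61-fold higher. Pkm, pyruvate kinase, was at 2050, 2310, 2294, 2649 and 3075 CPM against 1118, 948, 1407 and 1083 CPM (2.13-fold). Aldoa and Pkm stood well apart between the groups in both genotypes. Aldoc, the aldolase of neural tissue, was the list's largest change at 5.03-fold.

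At the branch from pyruvate, Ldha, which makes lactate, was at 1880, 2067, 2133, 2273 and 2521 CPM against 976, 891, 1398 and 1182 CPM (1.93-fold), whereas Ldhb differed by 1.04-fold in the other direction with overlapping groups. Slc16a3, the lactate exporter MCT4, was at 290 to 496 against 73.8 to 138 CPM (3.47-fold). The related transporter Slc16a1 (MCT1) differed by 1.02-fold. Pdk1, the kinase that blocks pyruvate dehydrogenase, was at 309, 338, 284, 294 and 309 CPM against 126, 150, 127 and 113 CPM (2.41-fold). Pdk1 was the 1 call among 35 pyruvate dehydrogenase and tricarboxylic acid cycle genes (median -0.05), where 2.14% of all tested genes were called higher. The isoform pairs Ldha and Ldhb, Slc16a3 and Slc16a1, and Pfkp and Pfkm thus parted at the call rule, a difference between isoforms that was described and not tested.

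Of the 22 tested glycolysis genes 6 were not called: Eno2, Eno3, Gapdh, Ldhb, Pfkm and Slc16a1. Eno3, the muscle enolase, was at 47.2, 45.8, 123, 194 and 157 CPM in the high and 79.9, 48.5, 323 and 112 CPM in the low cultures (1.38-fold lower, with overlap among the WT cultures), and Eno2, the neuronal enolase, at 2.90 to 8.27 against 3.82 to 5.97 CPM. The count of Gapdh needs care. Gapdh was listed at 11.02, 9.40, 12.5, 12.01 and 12.7 CPM in the high and 9.86, 10.4, 17.2 and 12.2 CPM in the low cultures, far below its neighbours in the pathway, with no order between the groups. Of the 31-base words of its GENCODE transcripts, 62.6% also stand in a transcript of another gene, spread over 329 genes. Of 440 tested pseudogenes, 90 shared more 31-base words with Gapdh than with any other protein-coding gene, predicted genes left aside (1.64 to 100% of their words). Of these 90, 36 were called higher, 87 had a positive change, and their median was 1.26 on the log2 scale. Their summed level was 38.1, 26.1, 29.6, 34.5 and 41.8 CPM in the high and 14.6, 14.6, 23.8 and 14.99 CPM in the low cultures. Counts at Gapdh itself and at its copies therefore differed in direction, and how the authors' counting treated reads that fit several copies is not given in the sources used here.

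These copies made up 36 (11.6%) of the 310 genes called higher. The other 350 tested pseudogenes had 6 calls (1.71%) and a median change of 0.03. Without the 90 copies, 274 of 14380 genes (1.91%) were called higher. Among called genes, Pgk1 had 68.3%, Eno1 53.5%, Pgam1 (5.38 against 2.68 CPM on average) 42.1%, Gpi1 36.6% and Pkm 34.8% of their words in other genes. Their levels are uncertain as well. Ldha, Aldoa, Tpi1 and Pfkp had 15.9 to 22.3%. The called pseudogene Pgk1-rs7, singled out after its values were seen, shared all of its words with Pgk1. By contrast, Aldoc, Eno3, Slc16a1, Slc16a3 and Slc2a3 shared 0 words with any other gene. Of these, Aldoc, Slc16a3 and Slc2a3 were called higher, and Eno3 and Slc16a1 were not called. The part of shared words in the calls was not tested.

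**Figure D3:**
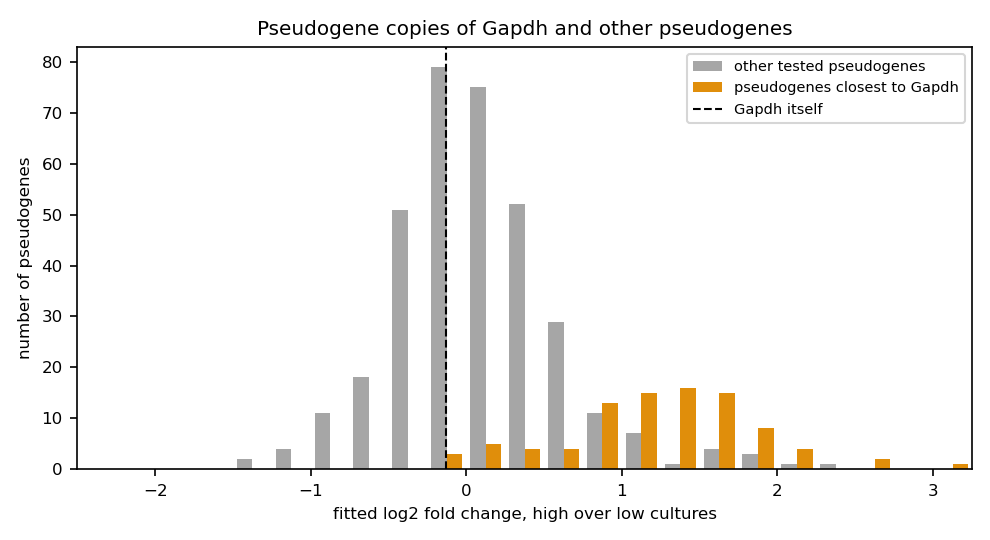
Number of tested pseudogenes by fitted log2 fold change, high over low cultures, for the 90 closest to Gapdh (orange) and the other 350 (grey), with Gapdh itself as a dashed line. The copies centre on 1.26 and the other pseudogenes on 0.03.

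Genes of respiration and growth leaned the other way by small amounts. None of 49 nuclear respiratory chain genes was called, 43 of the 49 changes were negative, and the median was -0.09, against -0.02 for all tested genes. None of 38 G1/S and replication genes was called (36 negative, median -0.21), none of 34 G2/M genes (31 negative, median -0.17) and none of 28 Myc and ribosome biogenesis genes (25 negative, median -0.25). All these members moved by under 1.5-fold in either direction. Without both libraries numbered 4 the 2 cell cycle medians were nearer 0, at -0.10 for G1/S and -0.10 for G2/M genes. Those of the respiratory chain (-0.10) and of Myc and ribosome biogenesis (-0.23) changed little. Most members had no clean order: 4, 8, 3 and 7 members of the respective lists had every high below every low culture within both genotypes, where 4.6% of all tested genes did. Members of 1 list vary together in a culture, so these counts are not independent of each other.

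**Figure D4:**
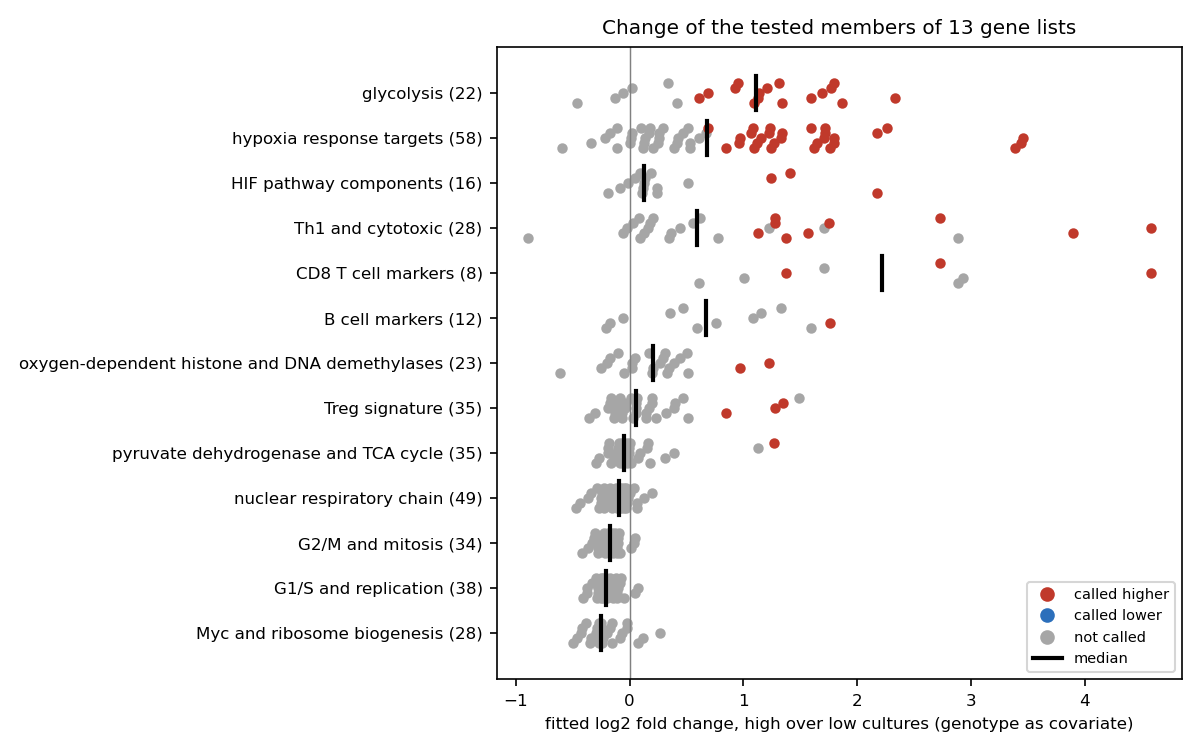
Fitted log2 fold change, high over low cultures, of each tested member of 13 gene lists (number tested in brackets), with members called higher in red, others in grey and the list median as a black bar. Glycolysis (median 1.11) and hypoxia targets (0.68) lie to the right, and the respiratory chain, cell cycle and ribosome biogenesis lists lie just left of 0.

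Treg identity genes were little changed. Of 35 tested genes of the Treg signature 3 were called higher, where 2.14% of all tested genes were, and the median was 0.06. Il2ra, the high-affinity interleukin-2 receptor chain, was at 6325, 6726, 5935, 6034 and 5672 CPM in the high and 5593, 5741, 5242 and 5380 CPM in the low cultures (1.13-fold), and Ctla4 at 847 to 1210 against 793 to 836 CPM (1.25-fold). Both kept the order within each genotype at a fold under that asked for, whereas Ikzf2 did not. Foxp3 had no overlap within either genotype but opposite directions. Its level was lower in the high cultures among Ezh2-deficient and higher in the high cultures among WT cultures. In WT the margin was small: the low WT replicate 3, at 1488 CPM, stood just below the high cultures. The low WT replicate 5, at 1296 CPM, lay far from the other WT cultures, so the WT direction rests largely on it. The 3 calls were Gzmb, the cytokine Il10 and the costimulatory receptor Tnfrsf9 (4-1BB; 1.80-fold, 260 to 504 against 173 to 240 CPM). The change of Il10 was 1.35 on the log2 scale, and 0.76 without Ezh2-deficient replicate 4. Of 19 inhibitory and costimulatory receptors 4 were called higher (2.14% of all tested genes were), Tnfrsf9, Havcr2 (TIM-3, 2.50-fold), Vsir (VISTA, 1.80-fold) and Cd244a (2.08-fold). Btla was called lower (-0.65 on the log2 scale), where 0.919% of all tested genes were. The immediate early and activation list had 1 call of 32, close to the 2.14% of all tested genes, and that call was Irf8, a transcription factor, at 1.91-fold.

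Cytotoxic and CD8 T cell transcripts were higher in most high cultures. Of 28 tested Th1 and cytotoxic genes 9 were called higher, where 2.14% of all tested genes were (10 without both libraries numbered 4, 13 without WT replicate 5). Gzmb, granzyme B, was at 784, 1370, 449, 234 and 453 CPM in the high and 301, 649, 67.1 and 227 CPM in the low cultures (2.43-fold). Prf1, perforin, was at 10.2 to 23.9 against 3.16 to 6.74 CPM (3.38-fold), and Eomes, a transcription factor of cytotoxic cells, at 5.68 to 17.2 against 3.20 to 5.16 CPM (2.59-fold). Gzma, granzyme A, was at 14.5, 27.7, 10.3, 1.76 and 1.98 CPM against 0.274, 0.0301, 0.345 and 1.56 CPM. Its fitted change of 3.89 on the log2 scale became 5.85 without WT replicate 5, the low culture with the highest level.

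Markers of CD8 T cells, which the sort for Tregs should leave out, were measured beside these genes. Cd8a was at 28.2, 79.7, 35.8, 35.9 and 97.5 CPM in the high and 0.936, 0.361, 1.98 and 41.2 CPM in the low cultures, and Cd8b1 at 28.8, 50.4, 26.1, 27.3 and 49.4 CPM against 15.4, 13.9, 14.2 and 29.1 CPM. WT replicate 5, a low culture, thus had as much Cd8a as the high cultures WT replicates 1 and 2, so neither gene was called. The summed level of the 8 CD8 markers was 74.4 to 169 CPM in the high cultures and 22.2, 18.9, 25.3 and 79.6 CPM in the low ones. Of the 8, 3 were called higher (Eomes, Gzmk and Klrk1), where 2.14% of all tested genes were. In bulk RNA more cells of a type and more RNA per cell cannot be told apart. The part of CD8 T cells in the cytotoxic genes was not tested.

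The glycolysis sum of WT replicate 5 was 5114 CPM, among the low cultures, while its CD8 marker sum was near those of Ezh2-deficient replicate 1, WT replicate 1 and WT replicate 2, whose sums for glycolysis were 10150, 11025 and 12318 CPM. The part of CD8 T cells in the hypoxia and glycolysis genes was not tested. The 9 NK cell markers summed to 3.34 to 11.3 CPM in the high and 0.361 to 9.13 CPM in the low cultures, with Ncr1, Klra4 and Klra8 at 0 in all 9 cultures. The 12 B cell markers, mostly Ighm, summed to 429 to 801 against 514 to 863 CPM, and the 16 myeloid markers, mostly Cst3, to 75.4 to 99.0 against 87.9 to 108 CPM. The B cell gene Ms4a1 was at 0 in the low Ezh2-deficient cultures and at 1.04 to 2.76 CPM in the other 7, so it did not follow the split among WT cultures. Single markers of B and NK cells did follow it: Cd22, a B cell receptor inhibitor, was at 1.21, 1.90, 2.49, 2.32 and 2.51 CPM in the high and 0.0228, 0.0602, 2.01 and 1.39 CPM in the low cultures. Klre1, an NK cell receptor, was at 0.772 to 1.25 against 0 to 0.517 CPM. These were the 1 call among 12 B cell and the 1 call among 4 tested NK cell markers, where 2.14% of all tested genes were called higher. The part of these markers in the results was not tested. Lyz2, of myeloid cells, was at 0.112 CPM or less.

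**Figure D5:**
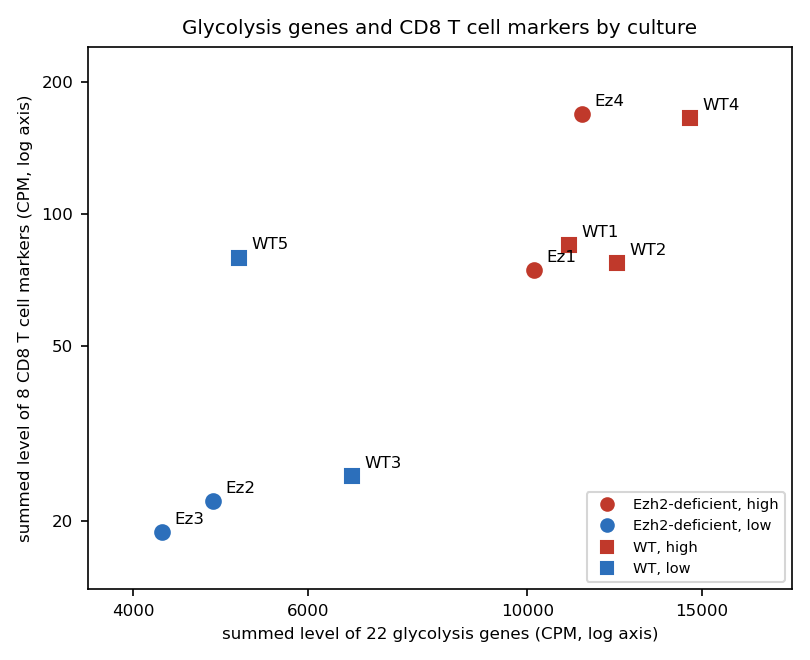
Summed level of the 22 tested glycolysis genes (x axis) and of 8 CD8 T cell markers (y axis) in each culture, both in CPM on log axes, with circles for Ezh2-deficient and squares for WT, red for high and blue for low. WT5 sits at 5114 and 79.6 CPM, apart from the other 3 low cultures, whose CD8 marker sums are 18.9 to 25.3 CPM.

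The largest changes outside the hypoxia and glycolysis lists were in genes with low levels in the low cultures. Vldlr (chromosome 19, 27216484 to 27254231), a lipoprotein receptor, was at 12.9, 22.6, 5.05, 9.29 and 11.4 CPM in the high and 0.183, 0.0602, 0.144 and 0.187 CPM in the low cultures, the largest fitted fold among the named rises at 79.9-fold. Atp7b (chromosome 8, 21992785 to 22060305), a copper transporter, was at 4.97, 7.17, 3.89, 9.76 and 11.8 CPM against 0.228, 0.120, 0.546 and 0.112 CPM (29.9-fold). In both genes the low cultures were close to silent and the high cultures of either genotype were not. Plcxd1, a phospholipase C-like protein, was 11.4-fold higher, at 8.82 to 29.2 against 0.806 to 1.78 CPM.

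More abundant genes with wide gaps were Itga7, Rgs11 and Mgarp. Itga7, the integrin alpha 7 chain, was at 70.2, 108, 57.9, 88.6 and 128 CPM in the high and 7.46, 5.50, 11.3 and 23.9 CPM in the low cultures (7.84-fold). Rgs11, a regulator of G protein signalling, was at 44.6, 53.8, 53.4, 55.3 and 73.0 CPM against 6.94, 5.38, 11.1 and 12.7 CPM (6.18-fold). Mgarp, a mitochondrial protein, was at 23.9 to 45.7 against 5.43 to 7.28 CPM (5.29-fold). Each of the 3 separated the cultures completely, with gaps of the same order as those of Ak4 and Bnip3. The rest of the 15 largest rises were Gzma, P4ha2, Ak4, Prelid2, Pkp2 (a desmosome protein, 5.46-fold), Aldoc, the lymphocyte receptor Slamf7 (5.03-fold), Bnip3 and Egln3, so that 5 of the 15 were on the hypoxia or glycolysis lists.

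Genes called lower were fewer and changed less. The largest fall among genes at 5 CPM or more was that of P2ry1, a purinergic receptor, at 4.08, 4.04, 0.880, 1.39 and 1.24 CPM in the high and 8.45, 10.2, 2.50 and 3.90 CPM in the low cultures (2.53-fold lower). Dapk1, a death-associated kinase, was 1.999-fold lower, and Serpine2, a protease inhibitor, 1.79-fold. These 3 were also higher in the Ezh2-deficient cultures (edgeR adjusted p = 0.0172, 0.00936 and 0.00174 without the level in the model), so high Ezh2-deficient cultures stood above low WT ones for P2ry1, Dapk1 and Serpine2, while within a genotype the order was clean. Atp1b1, a subunit of the sodium pump, was at 35.0, 34.8, 54.1, 61.7 and 72.4 CPM against 61.2, 75.1, 128 and 106 CPM (1.90-fold lower). Il9r, the interleukin-9 receptor, was at 4.22 to 5.92 against 7.66 to 12.1 CPM, with no overlap over all 9 cultures (1.87-fold lower). Hba-a1, a hemoglobin chain marking red cells, was 2.20-fold lower at 0.581 to 10.9 CPM. Of the 133 genes called lower, 99 had a mean under 5 CPM in the low cultures.

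Enzymes that need oxygen to demethylate histones or DNA were a further list of 23 genes. Kdm5b, an H3K4 demethylase, was at 134, 158, 117, 106 and 139 CPM in the high and 74.4, 74.3, 46.5 and 42.6 CPM in the low cultures (2.34-fold), and Kdm4b, an H3K9 demethylase, at 77.7 to 119 against 32.5 to 55.8 CPM (1.96-fold). These were the 2 calls of the list, where 2.14% of all tested genes were called higher. In 10 of the 23 every high culture was above every low one within both genotypes (5.43% of all tested genes were), and the median was 0.21. Kdm3a, a common HIF target, was at 142 to 172 against 112 to 135 CPM (1.31-fold).

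Whether the difference between high and low cultures was itself different between the genotypes was tested with the interaction of genotype and level. The split used no difference between genotypes. It did use the levels of hypoxia and glycolysis genes, so no interaction p is given for single genes of those lists. In edgeR's quasi-likelihood F-test 0 of 14470 genes (0%) passed at an adjusted p of 0.05. At an unadjusted p of 0.05, 588 genes passed. That is a smaller share of the 14470 genes than the 0.05 that would pass on average with no interaction at all. DESeq2 called 22 genes, limma-voom 0 and edgeR with no filter on low counts 127. With 2 or 3 cultures in each cell, a miss does not show that the genotypes respond alike. The genes at 5 CPM or more with the smallest adjusted p were Prickle3 (-0.88 on the log2 scale, adjusted p = 0.202), Rec8 (-1.50, adjusted p = 0.252), H2-Q5 (-1.08, adjusted p = 0.438), P4ha2 (-2.88, a hypoxia list member) and Prelid2 (2.34, adjusted p = 0.44), none past the threshold in edgeR. Rec8, a meiotic cohesin subunit, was at 15.3 and 22.7 against 30.0 and 32.003 CPM in the Ezh2-deficient and 8.18, 9.26 and 8.88 against 4.85 and 5.21 CPM in the WT cultures. Its high cultures were thus the lower ones in Ezh2-deficient and the higher ones in WT cells, and the test of that difference missed the threshold.

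The comparison the study was designed for, Ezh2-deficient against WT, was repeated with the level as a covariate. The level was read from the hypoxia and glycolysis transcripts of these libraries, so no genotype p with the level in the model is given for such genes, and they are tested below without it. In edgeR's test 2162 genes (14.9%) were higher and 1775 (12.3%) lower in Ezh2-deficient cultures, against 3044 called in all without the level, of which 3024 were called in both fits. These totals include 15 hypoxia targets higher and 1 lower, and 1 glycolysis gene higher and 7 lower. Without the level, 9 and 1 of these lists passed. The level was read from these same counts and takes up spread in every gene that follows it. The larger number called with it is therefore partly set by that choice. Without Ezh2-deficient replicate 3 the number lower was 941.

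Without the level, 3044 genes (21%) differed between the genotypes. Among the 22 glycolysis genes 1 passed, Eno3, which was lower in Ezh2-deficient cultures (-1.71 on the log2 scale, SE 0.35, edgeR adjusted p = 0.0102). The glucose transporter Slc2a3 was at 0.86 (SE 0.47, edgeR adjusted p = 0.227) and Slc2a1 at -0.26 (SE 0.41, edgeR adjusted p = 0.695). Hk2 was at -0.43 (SE 0.42, edgeR adjusted p = 0.512), so neither transporter nor this hexokinase passed. Without the level, the difference between high and low cultures stays in the spread of such genes and widens their SE. A miss therefore does not show that the genotypes are alike. Among the 58 hypoxia targets 9 passed: Bhlhe40, Car12, Cited2, Cox4i2, Dusp1, Fos, Pnrc1, Rab20 and Trim2. Each of the 9 had a positive genotype change, and none of them was called between high and low cultures. Cited2, a HIF target that competes with HIF for its coactivators, was at 0.49 on the log2 scale (SE 0.11, edgeR adjusted p = 0.0074).

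Epas1 was higher in Ezh2-deficient cultures by 1.78 on the log2 scale without the level (SE 0.20, edgeR adjusted p = 0.000134), with every Ezh2-deficient culture above every WT culture. Hif1a did not pass (0.10, SE 0.11, edgeR adjusted p = 0.524), nor did Egln1 (-0.15, SE 0.43, edgeR adjusted p = 0.845), Egln3 (0.13, SE 0.78, edgeR adjusted p = 0.932) or Ak4 (-0.39, SE 1.10, edgeR adjusted p = 0.84). The SEs of Egln1, Egln3 and Ak4 likewise include the difference between high and low cultures.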

How the data were processed

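The authors deposited 1 table of raw read counts per Ensembl gene for all 9 cultures, from a stranded mRNA kit per the labels' protocols. STAR and the genome build GRCm38 are named in the submitters' processing notes. How reads were assigned to genes (tool, strand setting, reads that fit several genes) is not given in the sources used here. The labels call the samples biological replicates.

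The members, gene lists and call rule were chosen with earlier results of these data known. Of 43432 identifiers, 42548 were in GENCODE M21 (GRCm38), which gave names and positions. Genes were kept with edgeR's filter on the 4 genotype-by-level groups and scaled by trimmed means of M-values. R 4.3.3, edgeR 4.0.16, DESeq2 1.42.0 and limma 3.58.1 were used. High over low came from edgeR's fit of genotype plus level, with no p-value. For the interaction and the genotype effect, F-tests of edgeR's robust quasi-likelihood fit were run, two-sided, with Benjamini-Hochberg adjustment over all genes tested and a threshold of 0.05. Differences within a genotype were of mean log2 CPM (prior count 2). The fit was checked on simulated counts.

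Named genes were the members of the hypoxia, glycolysis and HIF lists, the 15 largest rises and 15 largest falls with no overlap at 5 CPM or more (no predicted genes, pseudogenes or receptor segments), up to 4 called members of each other list, the 5 smallest interaction p-values at 5 CPM or more, and genes that check the labels. Markers of other cell types and the search for pseudogene copies were added beside these, the latter after the data were seen. Alternatives changed the scaling, filter, tool, fold, overlap rule, covariates or libraries. The sex covariate and the fit without both libraries numbered 4 were chosen after seeing the data. Replicate numbers were taken as names and not as pairs, since no label ties them together.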

Additional observations from a re-analysis of the deposited data

Results flagged for a closer look

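Among 206 groups of values (99 genes and 4 library measures in each genotype), 5 (2.43%) had 1 culture far from the rest by Dixon's criterion, which chance meets in about 1 in 20 groups. Gapdh was at 17.2 CPM in WT replicate 3, against 12.01 to 12.7 CPM in the other WT cultures, and WT replicate 3 also had the highest summed level of Gapdh copies among the low cultures, at 23.8 CPM. Foxp3 was at 1296 CPM in WT replicate 5, against 1488 to 1540 CPM in the other WT cultures, and this low culture is the one with a Cd8a level of 41.2 CPM. Gzma was at 10.3 CPM in WT replicate 1, the culture with 1 floxed allele of Ezh2, against a next highest WT value of 1.98 CPM. Il10 was at 11.6 CPM in Ezh2-deficient replicate 4, against a next highest Ezh2-deficient value of 2.75 CPM. Eno3, the muscle enolase, was at 79.9 CPM in Ezh2-deficient replicate 2, against 45.8 to 48.5 CPM in the other Ezh2-deficient cultures.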

How the results depend on the processing

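The 310 genes called higher became 202 with a filter of 1 CPM in 4 libraries, 136 with a mean of at least 5 CPM, 190 with no overlap asked over all 9 cultures, and 342 to 598 when 1 library was left out. The 133 called lower became 72, 34 and 46 under the same 3 settings, 53 at 2-fold, 335 without both libraries numbered 4, and 161 to 406 when 1 library was left out. The no-overlap rule is easier to meet with fewer libraries, by construction. The interaction test, with 0 genes called, gave 22 with DESeq2, 127 with no filter and 0 to 10 when 1 library was left out. Genes lower in Ezh2-deficient cultures (1775) numbered 941 to 2357 when 1 library was left out, the lowest without Ezh2-deficient replicate 3. Of 89 called genes that may be named, 87 kept their direction in all 18 alternatives and 24 moved by over 1.5 times in at least 1. With the replicate number as a block, Ankrd37 was at -0.11 and Ciart at -0.55 on the log2 scale, both reversed, the calls were 320 higher and 164 lower, 119 genes passed the interaction test, and the genotype calls were 1814 and 1683. In that fit Irf8 was at 0.18 against 0.93, and the medians were 0.92 for glycolysis and 0.02 for G2/M genes. Same-numbered libraries had correlations of 0.11, -0.07, 0.11 and 0.17 of their deviations from the genotype means, and 0 of the 4 correlated best with its own number. The cause of these shifts was not tested. Numbers 1, 3 and 4 have the same level in both genotypes, so the block leaves little contrast for the level. With the interaction added, that fit has nearly as many terms as libraries, so its 119 calls rest on very little remaining spread. Genes at low counts, among them 174 of those called higher with a mean under 5 CPM in the high cultures, are the ones that depth limits most.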
